A study of Mus musculus with 12 samples.

Results

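The cell cycle and mitosis genes described here are 50 genes chosen by name: cyclins and their control, the anaphase-promoting complex, mitotic kinases and the spindle checkpoint, spindle motors, centromere proteins, transcription factors, replication licensing and fork proteins, and enzymes of nucleotide synthesis. Of the 50 genes, 48 had a probe that could be matched by its RefSeq accession, and 46 of these passed the filter on dim probes and were tested among 21857 items, of which 13649 were named genes. Mki67 and Gins1 were not matched to a probe. Cdc25c and Ttk were well above background on PBS 1 alone, and were not tested. Of the 46 genes tested, 39 were well above background on all 12 arrays.

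Lung RNA was hybridised to 1-colour Agilent arrays, 1 array per lung sample and 3 per group. Numbers after a group name are sample numbers, and the labels do not state that the 3 samples of a group came from separate mice. The LPS/NNK mice (2, 3 and 6) were given both agents, the LPS mice (1, 5 and 6) bacterial lipopolysaccharide alone (5 ug per mouse into the nose, weekly for 16 weeks), the NNK mice (2, 3 and 5) the tobacco nitrosamine NNK alone (3 mg per mouse into the peritoneum during 4 weeks), and the PBS mice (1, 2 and 3) phosphate-buffered saline weekly for 16 weeks. All were FVB/N mice, labelled FVB/NJ in the strain field, female by the protocol, 7 weeks old at the start and killed 1 week after the last treatment. No vehicle is named for mice given NNK alone; the labels give the NNK schedule once as biweekly and once as semi-weekly, and do not say whether tumour tissue was in the sample or whether the NNK mice had the same age at death.

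Before the results, some arrays stood apart. All 10 lung markers, among them the surfactant genes Sftpc and Sftpb, were well above background on every array. PBS 1 and PBS 2 went against the female label: Xist was not above background there while the Y-linked Ddx3y was, and the other 10 arrays showed Xist and no Ddx3y above background. The share of spots well above background was 55.6% to 67.5% on the 9 treated arrays and 70.2% to 73.1% on the PBS arrays, and PBS arrays lay at position 1 of their slide, LPS and NNK arrays at position 2 and LPS/NNK arrays at position 4, so that position and group cannot be told apart except between LPS and NNK. Where the PBS group enters, counts are given with and without PBS 1 and PBS 2. Many, but not all, of the genes whose call depends on these arrays are named.

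In a dividing cell, E2F factors switch on replication genes before S phase, and the MCM helicase is loaded on origins by Cdc6 and Cdt1. Later FoxM1 and B-Myb, with MuvB, a complex that is also part of DREAM, act on a second wave of mitotic genes. Promoters of these genes often carry CCAAT boxes and cell cycle homology regions. Cyclin B with Cdk1 drives entry into mitosis, Aurora and Polo kinases build the spindle, and the anaphase-promoting complex ends mitosis by marking cyclin B and securin for destruction. In adult lung most cells are quiescent, and these transcripts come mainly from the few cells that divide. In bulk tissue, fewer cells of a type and less RNA per cell cannot be told apart.

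All levels below are log2 of the processed signal minus the array's 75th percentile, so a level of 0 is the signal that 75% of probes fall under, and a change is a difference of group means on this scale. Probes differ in their response, so levels of different genes are not compared. A call means that limma gave a 2-sided p under 0.05 after Benjamini-Hochberg adjustment over all 21857 items. With 3 arrays per group the smallest p an exact permutation test can give is 0.1.

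The comparison of LPS/NNK with NNK lungs asks what repeated endotoxin added to the carcinogen. Of the 46 genes, 22 were higher in LPS/NNK lungs and 0 were lower, where 7.92% of all items were called higher and 9.34% lower, so that 47.8% of the genes rose. At an unadjusted p under 0.05 limma gave 32 higher and 0 lower, where 7200 of all 21857 items had such a p in either direction. The median change was 1.06 over the 46 genes and -0.06 over all items. In 32 genes every LPS/NNK array lay above every NNK array and in 0 genes below, where 15.7% of all items were separated upward and 20.2% downward.

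**Figure D1:**
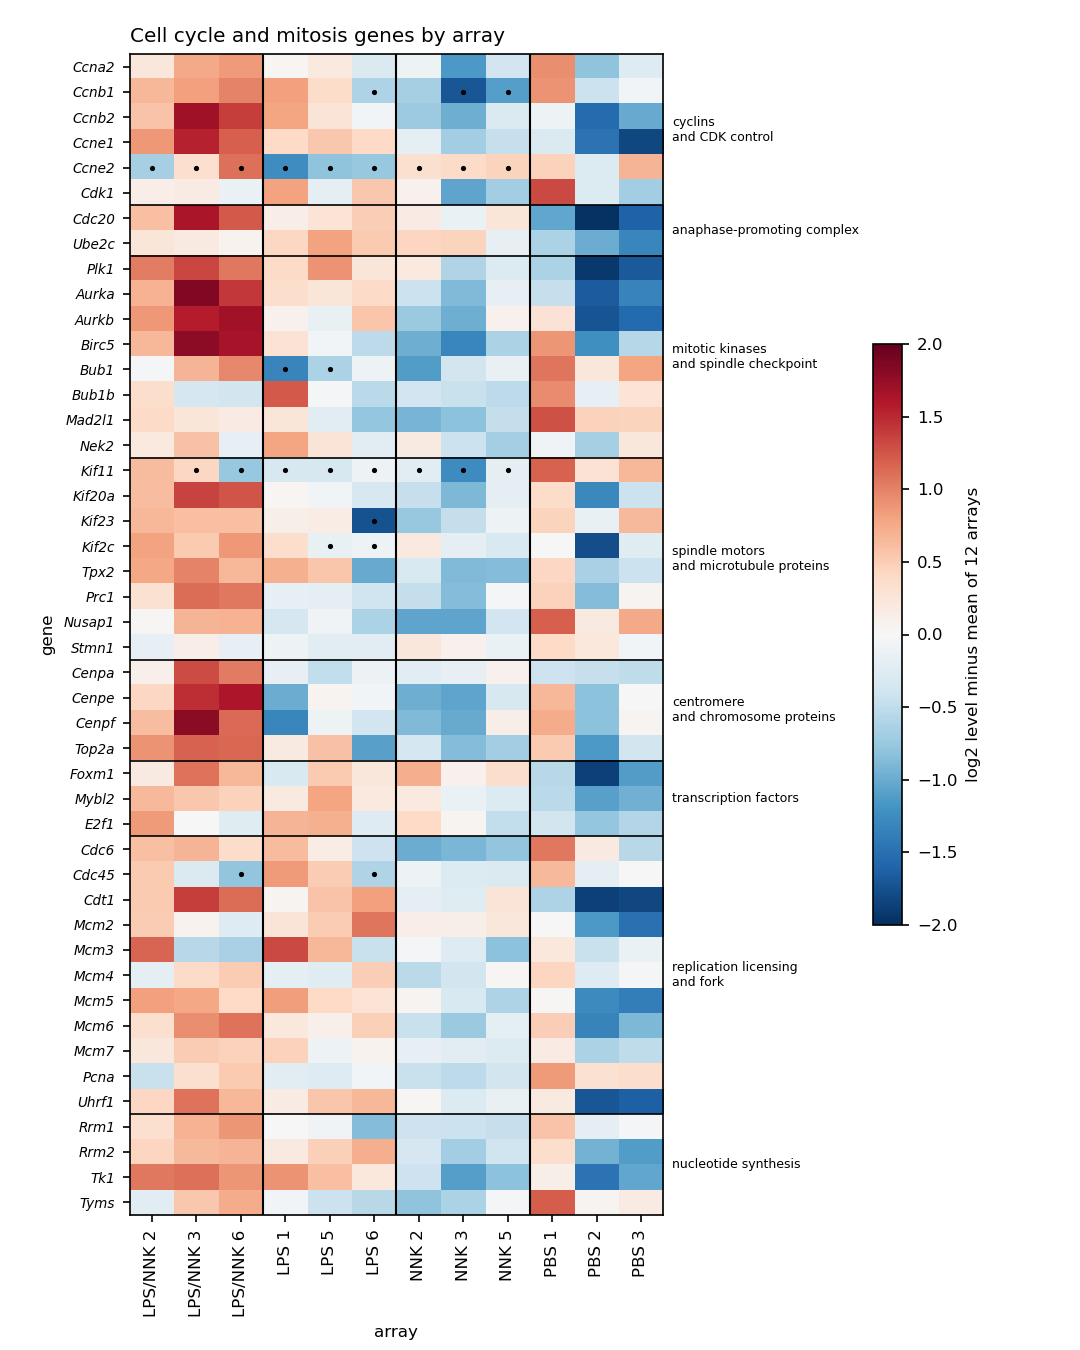
Level of each of the 46 tested genes on each of the 12 arrays, as the log2 level minus that gene's mean over the 12 arrays (colour, limited to 2 either way), with genes in rows by role and arrays in columns by group; black dots mark arrays where the probe was not well above background. The LPS/NNK columns are redder than the NNK columns over most mitotic rows, and PBS 1 differs from the other PBS columns. For some rows, such as Mad2l1 and Nusap1, the PBS mean lies above the LPS/NNK mean.

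By role, 3 of 6 cyclins and CDK control genes, 1 of 2 genes of the anaphase-promoting complex, 5 of 8 kinases and checkpoint genes, 4 of 8 spindle genes and 4 of 4 centromere and chromosome genes were called higher, as were 2 of 11 licensing and fork genes, 3 of 4 nucleotide enzymes and 0 of 3 transcription factors (Foxm1, Mybl2 and E2f1; limma at an unadjusted p under 0.05 gave 1 of these). The median change was 1.74 over the centromere genes, 1.22 over the kinases and checkpoint genes, 1.18 over the spindle genes and 0.62 over the licensing and fork genes. These shares were not tested against each other.

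Among the cyclins, Ccnb2, a cyclin B that partners Cdk1 in mitosis, had levels of 1.65, 2.77 and 2.46 in LPS/NNK lungs and 1.87, 1.34 and 1.03 in LPS lungs, against 0.35, 0.10 and 0.79 in NNK lungs and 0.97, -0.46 and 0.08 in PBS lungs. Its rise over NNK lungs was 3.68-fold (log2 change 1.88, SE 0.39, adjusted p = 0.00674). Every LPS/NNK array lay above every NNK and PBS array, and the LPS arrays overlapped with LPS/NNK arrays but not with NNK or PBS arrays. Ccne1, the cyclin E of the G1/S transition, read 1.08, 1.75 and 1.41 in LPS/NNK lungs and 0.62, 0.76 and 0.61 in LPS lungs, against 0.01, -0.47 and -0.24 in NNK lungs and -0.07, -1.26 and -1.60 in PBS lungs (log2 change 1.65, SE 0.34, adjusted p = 0.00694, LPS/NNK against NNK). The LPS/NNK arrays were the highest of the 12, and the LPS arrays lay above all NNK and PBS arrays. A second Ccne1 probe, above background on all 12 arrays, changed by 0.50. Ccnb1, the main mitotic cyclin B, was dim: -3.29, -3.12 and -2.95 in LPS/NNK lungs and -3.12, -3.58 and -4.56 in LPS lungs, against -4.61, -5.66 and -5.04 in NNK lungs and -3.04, -4.37 and -4.00 in PBS lungs (log2 change 1.99, SE 0.41, adjusted p = 0.00639, LPS/NNK against NNK). Its probe was well above background on all 3 LPS/NNK arrays but on 1 of 3 NNK arrays, and its other probes, also dim, changed by 0.97 and 1.04. Ccna2, cyclin A of S phase and G2, had -0.90, -0.37 and -0.28 in LPS/NNK lungs, against -1.23, -2.28 and -1.52 in NNK lungs, with no overlap but short of the threshold (log2 change 1.16, SE 0.40, adjusted p = 0.0613). The kinase Cdk1 itself had -2.33, -2.31 and -2.60 in LPS/NNK lungs, against -2.39, -3.52 and -3.17 in NNK lungs, and these overlapped (log2 change 0.61, SE 0.46, adjusted p = 0.38). Ccne2 was well above background on the 3 PBS arrays alone, so LPS/NNK and NNK lungs cannot be compared for it.

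Of Cdc20 and Ube2c, an activator of the anaphase-promoting complex and its ubiquitin-conjugating enzyme, the activator was called and the enzyme was not. Cdc20 had levels of 3.00, 4.05 and 3.64 in LPS/NNK lungs and 2.55, 2.68 and 2.90 in LPS lungs, against 2.57, 2.27 and 2.65 in NNK lungs and 1.37, 0.43 and 0.79 in PBS lungs. It rose over NNK lungs (log2 change 1.06, SE 0.31, adjusted p = 0.0309), with LPS/NNK arrays the highest of all and the 9 treated arrays above every PBS array. Ube2c read -0.07, -0.13 and -0.23 in LPS/NNK lungs and 0.11, 0.49 and 0.22 in LPS lungs, against 0.13, 0.14 and -0.47 in NNK lungs and -0.94, -1.30 and -1.62 in PBS lungs. For Ube2c the LPS/NNK and NNK arrays overlapped (log2 change -0.07, SE 0.25, adjusted p = 0.87), while all 9 treated arrays again lay above all PBS arrays.

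Many mitotic promoters carry a CCAAT box near the cell cycle homology region TTTGAA, and the promoters of 3 such genes are shown as examples of this pair of motifs among the mitotic genes. RefSeq promoters (GRCm38.p6, 250 bases before to 50 after the start, 43 windows of 40 of the 50 genes) were searched on both strands. Capitals mark CCAAT and TTTGAA on either strand (ATTGG and TTCAAA where the match is on the other strand) in the 200 bases before the start, written 5′ to 3′ along the gene. Top2a lies at chr11:99024190-99024389 (minus strand), Cdc20 at chr4:118437344-118437543 (minus strand) and Kif11 at chr19:37376182-37376381 (plus strand).
Top2a: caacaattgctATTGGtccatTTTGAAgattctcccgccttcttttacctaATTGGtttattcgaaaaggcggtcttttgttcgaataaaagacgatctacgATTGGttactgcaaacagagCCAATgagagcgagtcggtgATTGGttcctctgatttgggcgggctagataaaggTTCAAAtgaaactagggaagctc
Cdc20: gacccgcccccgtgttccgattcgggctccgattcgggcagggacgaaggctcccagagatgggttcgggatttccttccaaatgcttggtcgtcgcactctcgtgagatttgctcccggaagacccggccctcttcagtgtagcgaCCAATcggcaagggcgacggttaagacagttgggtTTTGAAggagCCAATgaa
Kif11: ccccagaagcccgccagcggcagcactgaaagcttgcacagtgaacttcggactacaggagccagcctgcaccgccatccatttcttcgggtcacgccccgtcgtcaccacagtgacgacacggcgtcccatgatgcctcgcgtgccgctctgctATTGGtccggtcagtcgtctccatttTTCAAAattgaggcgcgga
CCAAT was present in 32 of the 43 windows (74.42%), against 37.41% of all 32851 promoters in the table, and TTTGAA in 19 (44.19%), against 17.89%. Both lay within 60 bases of each other in 14 windows (32.56%), against 3.397% of all promoters. By gene, TTTGAA was found in 4 of 5 spindle genes and 4 of 5 centromere and chromosome genes with a promoter here, against 2 of 10 licensing and fork genes and 0 of 4 nucleotide enzymes. The letters are a description of these windows and were not set against binding data.

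Among the kinases and the spindle checkpoint, Aurka, the Aurora kinase of centrosomes and spindle poles, had levels of 1.04, 2.20 and 1.77 in LPS/NNK lungs and 0.70, 0.58 and 0.72 in LPS lungs, against -0.08, -0.54 and 0.19 in NNK lungs and -0.11, -1.32 and -0.99 in PBS lungs. It rose 3.51-fold over NNK lungs (log2 change 1.81, SE 0.35, adjusted p = 0.00475). Every LPS/NNK array was above every other array, and LPS arrays were in turn above all NNK and PBS arrays. Birc5 (survivin), a subunit of the chromosomal passenger complex, read 1.35, 2.48 and 2.34 in LPS/NNK lungs and 0.98, 0.64 and 0.17 in LPS lungs, against -0.29, -0.62 and 0.06 in NNK lungs and 1.57, -0.54 and 0.12 in PBS lungs. Its change over NNK lungs was the largest of the 46 genes, 5.07-fold (log2 change 2.34, SE 0.47, adjusted p = 0.00538). PBS 1 stood out among the PBS arrays and lay above LPS/NNK 2. Aurkb, the kinase of the same complex, had -1.62, -0.92 and -0.81 in LPS/NNK lungs and -2.41, -2.64 and -1.93 in LPS lungs, against -3.24, -3.47 and -2.41 in NNK lungs and -2.21, -4.22 and -4.04 in PBS lungs (log2 change 1.92, SE 0.47, adjusted p = 0.0157, LPS/NNK against NNK). Its LPS/NNK arrays were the highest of the 12. Plk1, the Polo kinase of mitotic entry and spindle assembly, had 1.47, 1.79 and 1.5 in LPS/NNK lungs and 0.83, 1.34 and 0.68 in LPS lungs, against 0.64, -0.16 and 0.18 in NNK lungs and -0.18, -1.48 and -1.23 in PBS lungs (log2 change 1.37, SE 0.34, adjusted p = 0.0163, LPS/NNK against NNK). The order of the arrays was LPS/NNK, then LPS, then NNK, with no overlap between these 3 groups.

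The checkpoint genes were less uniform. Mad2l1, which holds back anaphase until chromosomes are attached, read -2.09, -2.23 and -2.30 in LPS/NNK lungs and -2.23, -2.71 and -3.25 in LPS lungs, against -3.40, -3.29 and -2.94 in NNK lungs and -1.20, -2.02 and -2.02 in PBS lungs (log2 change 1.01, SE 0.30, adjusted p = 0.0364, LPS/NNK against NNK). The LPS/NNK arrays were above all NNK arrays and below all PBS arrays. Bub1, another checkpoint kinase, had -3.40, -2.71 and -2.43 in LPS/NNK lungs and -4.70, -4.01 and -3.48 in LPS lungs, against -4.50, -3.75 and -3.54 in NNK lungs and -2.31, -3.16 and -2.60 in PBS lungs. The Bub1 arrays of LPS/NNK and NNK lungs did not overlap, short of the threshold (log2 change 1.08, SE 0.38, adjusted p = 0.0636). Bub1b and Nek2 changed by 0.34 and 0.51 over NNK lungs and were not called (adjusted p = 0.604 and 0.319).

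**Figure D2:**
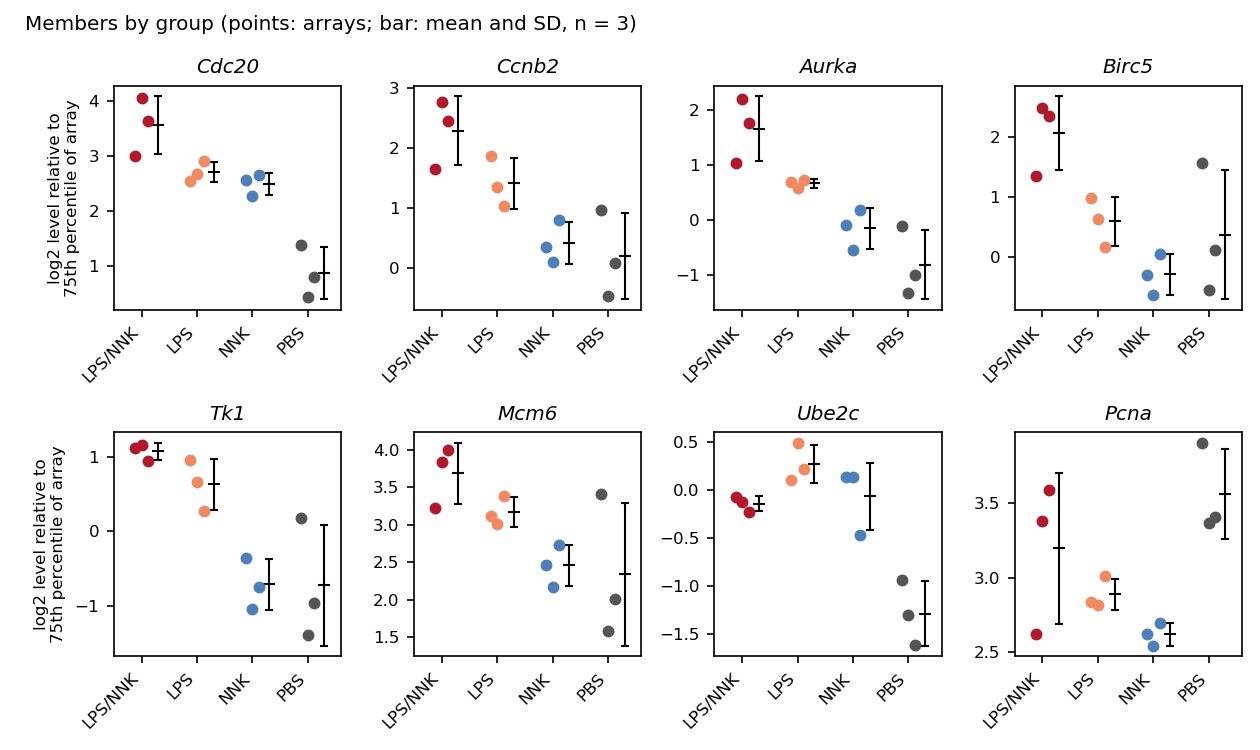
Log2 level of 8 genes (Cdc20, Ccnb2, Aurka, Birc5, Tk1, Mcm6, Ube2c and Pcna) by group, each point 1 array and each bar the mean with its SD (n = 3). LPS/NNK points are the highest for Cdc20 and Aurka, Ube2c is higher on all 9 treated arrays than on the PBS arrays, and Pcna is lower on the LPS and NNK arrays than on the PBS arrays.

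Of the spindle genes, Kif20a, a kinesin of the central spindle, had levels of -0.58, 0.15 and 0.05 in LPS/NNK lungs and -1.17, -1.25 and -1.53 in LPS lungs, against -1.67, -2.11 and -1.38 in NNK lungs and -0.84, -2.50 and -1.64 in PBS lungs (log2 change 1.59, SE 0.37, adjusted p = 0.0121, LPS/NNK against NNK). The LPS/NNK arrays were above every other array. Prc1, which bundles the microtubules of the midzone, read 0.05, 0.86 and 0.79 in LPS/NNK lungs and -0.43, -0.45 and -0.66 in LPS lungs, against -0.73, -1.13 and -0.29 in NNK lungs and 0.19, -1.14 and -0.21 in PBS lungs (log2 change 1.28, SE 0.35, adjusted p = 0.0244, LPS/NNK against NNK). Nusap1, a spindle microtubule protein, read -2.40, -1.74 and -1.72 in LPS/NNK lungs and -2.76, -2.50 and -3.05 in LPS lungs, against -3.48, -3.48 and -2.81 in NNK lungs and -1.22, -2.25 and -1.67 in PBS lungs (log2 change 1.30, SE 0.32, adjusted p = 0.0151, LPS/NNK against NNK). For Prc1 and Nusap1 the LPS/NNK arrays were clear of the NNK and LPS arrays but overlapped with the PBS arrays. Tpx2, which activates Aurora A on the spindle, had -1.54, -1.33 and -1.65 in LPS/NNK lungs and -1.60, -1.77 and -3.32 in LPS lungs, against -2.62, -3.20 and -3.18 in NNK lungs and -1.90, -2.96 and -2.75 in PBS lungs (log2 change 1.49, SE 0.41, adjusted p = 0.0262, LPS/NNK against NNK). LPS 6 was lower than the other LPS arrays for Tpx2, as it was for Kif23 and Top2a. The spindle genes not called were Kif23 (log2 change 1.07), Kif2c (0.84), Stmn1 (-0.13) and Kif11, with adjusted p of 0.0976, 0.147 and 0.726 for the first 3. Kif11 was well above background on 1 of 3 LPS/NNK arrays and 0 of 3 NNK arrays, and no change is given for it. Stmn1, a microtubule-destabilising protein that is also made by cells that do not divide, varied little, between 4.60 and 5.23 over the 12 arrays.

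All 4 centromere and chromosome genes with a tested probe rose. Cenpf, a kinetochore protein of G2 and mitosis, had levels of -1.38, -0.19 and -0.86 in LPS/NNK lungs and -3.30, -2.10 and -2.38 in LPS lungs, against -2.87, -3.00 and -1.88 in NNK lungs and -1.25, -2.82 and -1.94 in PBS lungs (log2 change 1.78, SE 0.46, adjusted p = 0.0194, LPS/NNK against NNK). Its LPS/NNK arrays were above every LPS and NNK array and overlapped with PBS 1. Cenpe, a kinetochore motor, read 0.25, 1.33 and 1.47 in LPS/NNK lungs and -1.14, -0.10 and -0.21 in LPS lungs, against -1.13, -1.22 and -0.48 in NNK lungs and 0.52, -0.98 and -0.16 in PBS lungs (log2 change 1.96, SE 0.43, adjusted p = 0.00894, LPS/NNK against NNK). Again PBS 1 lay above the lowest LPS/NNK array. A second Cenpe probe, above background on 5 of the 12 arrays, changed by 0.04. Top2a, the DNA topoisomerase that untangles sister chromatids, had -1.61, -1.33 and -1.36 in LPS/NNK lungs and -2.33, -1.92 and -3.6 in LPS lungs, against -2.87, -3.37 and -3.20 in NNK lungs and -1.99, -3.66 and -2.87 in PBS lungs (log2 change 1.71, SE 0.44, adjusted p = 0.0187, LPS/NNK against NNK). Here the LPS/NNK arrays were the highest of all 12. Cenpa, the histone variant of centromeres, had -0.96, 0.25 and -0.03 in LPS/NNK lungs and -1.22, -1.55 and -1.17 in LPS lungs, against -1.27, -1.23 and -0.97 in NNK lungs and -1.47, -1.52 and -1.57 in PBS lungs (log2 change 0.91, SE 0.29, adjusted p = 0.0445, LPS/NNK against NNK). LPS/NNK 2 was just above the highest NNK array, and the other LPS/NNK arrays were well clear of it.

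Of the 11 licensing and fork genes, Cdc6 and Mcm6 rose. Cdc6, which loads the MCM helicase, had levels of -2.48, -2.40 and -2.71 in LPS/NNK lungs and -2.44, -2.93 and -3.49 in LPS lungs, against -4.07, -3.99 and -3.87 in NNK lungs and -2.03, -2.91 and -3.64 in PBS lungs (log2 change 1.44, SE 0.36, adjusted p = 0.0176, LPS/NNK against NNK). The NNK arrays were the lowest of the 12. A second Cdc6 probe, above background on 11 arrays, changed by 0.66. Mcm6, a helicase subunit, read 3.23, 3.84 and 4.00 in LPS/NNK lungs and 3.12, 3.01 and 3.39 in LPS lungs, against 2.46, 2.17 and 2.73 in NNK lungs and 3.41, 1.58 and 2.01 in PBS lungs (log2 change 1.23, SE 0.39, adjusted p = 0.0461, LPS/NNK against NNK). PBS 1 was again the only PBS array within the LPS/NNK range. Mcm5 had 2.15, 2.10 and 1.72 in LPS/NNK lungs, against 1.38, 1.02 and 0.71 in NNK lungs, and Cdt1, the other licensing factor, had 3.31, 4.16 and 3.90 in LPS/NNK lungs, against 2.60, 2.54 and 3.04 in NNK lungs. Neither overlapped between these groups and neither passed the threshold (adjusted p = 0.0751 for Mcm5 and 0.0567 for Cdt1). The other MCM subunits changed by -0.05 (Mcm2), 0.36 (Mcm3), 0.53 (Mcm4) and 0.62 (Mcm7) and were not called. Pcna, the sliding clamp of the fork, had 2.62, 3.38 and 3.59 in LPS/NNK lungs, against 2.62, 2.54 and 2.69 in NNK lungs (log2 change 0.58, SE 0.27, adjusted p = 0.151). Here too the groups overlapped.

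Licensing genes are known targets of E2F, and 3 of their promoters are shown for the E2F-like motif TTTNNCGC (N any base). Capitals mark TTTNNCGC and CCAAT on either strand, in the same kind of window; matches that overlap on opposite strands run together in Mcm6 and Mcm5. Cdc6 lies at chr11:98907951-98908150 (plus strand), Mcm6 at chr1:128359706-128359905 (minus strand) and Mcm5 at chr8:75109309-75109508 (plus strand), in GRCm38.p6.
Cdc6: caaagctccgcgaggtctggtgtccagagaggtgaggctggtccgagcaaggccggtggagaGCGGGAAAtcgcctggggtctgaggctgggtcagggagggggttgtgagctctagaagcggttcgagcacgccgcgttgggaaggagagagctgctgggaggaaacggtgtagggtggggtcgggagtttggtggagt
Mcm6: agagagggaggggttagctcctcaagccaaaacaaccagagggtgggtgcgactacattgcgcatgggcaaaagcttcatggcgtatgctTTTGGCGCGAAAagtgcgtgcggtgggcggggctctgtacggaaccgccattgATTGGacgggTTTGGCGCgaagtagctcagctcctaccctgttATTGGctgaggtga
Mcm5: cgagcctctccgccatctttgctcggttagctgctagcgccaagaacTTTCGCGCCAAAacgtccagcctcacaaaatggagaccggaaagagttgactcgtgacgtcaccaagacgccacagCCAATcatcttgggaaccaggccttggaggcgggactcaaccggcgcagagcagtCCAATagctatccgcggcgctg
TTTNNCGC was found in 10 of the 43 windows (23.26%), against 5.169% of all promoters. By gene, 7 of 10 licensing and fork genes had it, and 0 of 8 kinases and checkpoint genes, 0 of 5 spindle genes and 0 of 5 centromere and chromosome genes.

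Among the 4 enzymes of nucleotide synthesis, 3 rose. Tk1, the thymidine kinase of S phase, had levels of 1.12, 1.17 and 0.95 in LPS/NNK lungs and 0.96, 0.67 and 0.28 in LPS lungs, against -0.35, -1.04 and -0.75 in NNK lungs and 0.18, -1.40 and -0.96 in PBS lungs (log2 change 1.79, SE 0.36, adjusted p = 0.00534, LPS/NNK against NNK). The LPS/NNK and LPS arrays were all above the NNK and PBS arrays. Rrm1, the large subunit of ribonucleotide reductase, read 1.29, 1.65 and 1.84 in LPS/NNK lungs and 0.96, 0.89 and 0.10 in LPS lungs, against 0.54, 0.53 and 0.50 in NNK lungs and 1.52, 0.78 and 0.93 in PBS lungs (log2 change 1.07, SE 0.29, adjusted p = 0.0231, LPS/NNK against NNK). The small subunit, Rrm2, rose by 1.05 (SE 0.34, adjusted p = 0.0466), and Tyms, thymidylate synthase, changed by 0.85 without passing the threshold (adjusted p = 0.11).

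**Figure D3:**
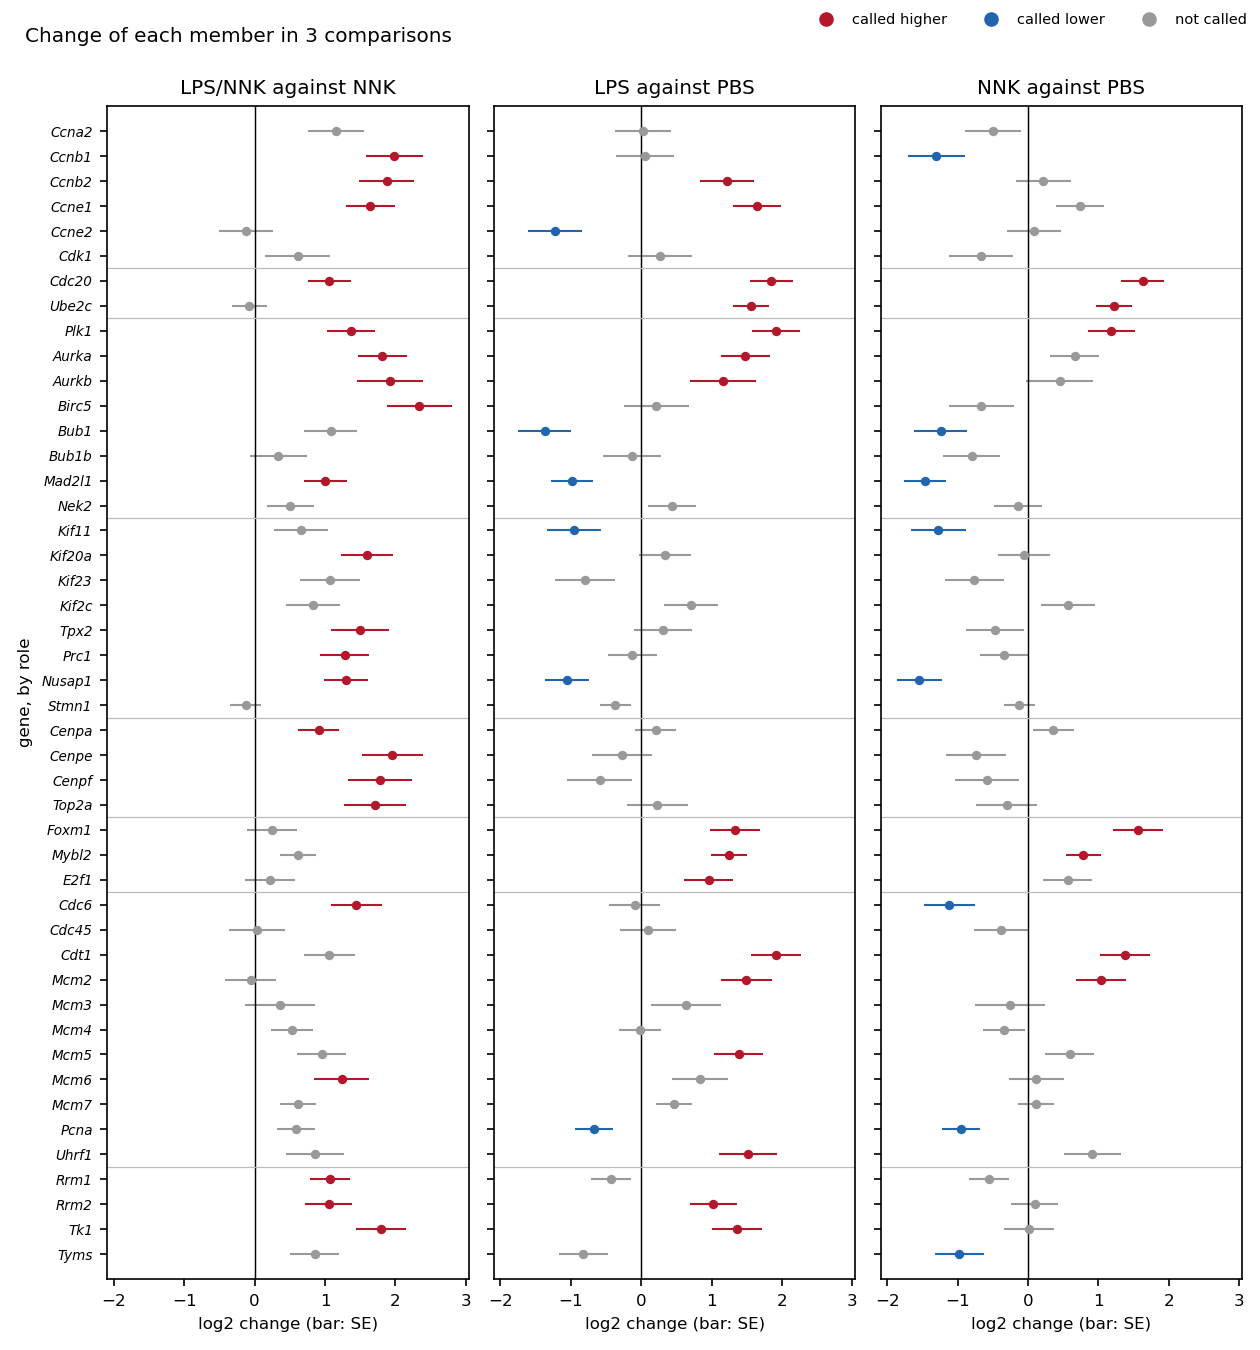
Log2 change of each of the 46 genes with its SE in LPS/NNK against NNK, LPS against PBS and NNK against PBS (3 arrays per group); red is called higher, blue called lower and grey not called. In the first panel 42 of 46 changes are above 0 and none is called lower, while the panels against PBS hold calls in both directions.

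Limits on the count of 22 are these. The calls over all items, 3773 of 21857 in the full fit, moved too. Leaving out NNK 3 or LPS/NNK 3 left 7 genes called, with 1576 and 1786 of all items. Leaving out NNK 2 or LPS/NNK 6 left 11, with 1631 and 2024 of all items. Leaving out LPS/NNK 2 gave 26, with 5814 of all items. With normexp background correction 3 were called (Aurka, Birc5 and Ccnb2), with a median of 0.44, and 353 of all items. These 3 were called in 24 of 24 alternatives. The calls of Cenpa, Mcm6 and Rrm2 were the least stable, kept in 9, 11 and 11 of 24. Within slide 6 (LPS/NNK 2 and NNK 3) and slide 7 (LPS/NNK 3 and NNK 5) the median difference of the 46 genes was 1.10 and 1.11, with 43 of 46 above 0 in each, against -0.16 and -0.02 over all items.

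The comparison of LPS/NNK with LPS lungs asks what the carcinogen added to endotoxin. In LPS/NNK against LPS, 1 of 46 genes was called higher (Cenpf, log2 change 1.79, SE 0.46, adjusted p = 0.0464) and 0 lower, that is 2.17% higher where 2.84% of all items were called higher and 1.26% lower. At an unadjusted p under 0.05 limma gave 17 higher and 0 lower, where 5581 of all 21857 items had such a p in either direction. The median was 0.58 over the 46 genes and 0.11 over all items. Changes above 1 without a call included Birc5 (1.46), Cenpe (1.5) and Aurkb (1.21), with adjusted p of 0.0832, 0.063 and 0.135. Leaving out LPS/NNK 2 gave 13 calls, where the calls over all 21857 items rose from 897 to 4826. The LPS and LPS/NNK arrays lay on different slides of different slide series. With the series as a term 0 genes were called (0 at an unadjusted p under 0.05), with 1 call over all items, and the median was -0.12. The LPS series held no other array than PBS 2, so this term rests on PBS 2 against the other PBS arrays.

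Between the single agents, LPS against NNK, 1 of 46 genes was called higher, Tk1 (log2 change 1.35, SE 0.36, adjusted p = 0.0396), and 0 lower, where 2.73% of all items were called higher and 3.47% lower. At an unadjusted p under 0.05 limma gave 9 higher and 1 lower, where 4414 of all 21857 items had such a p in either direction. Ccnb1 differed by 1.35, Ccnb2 by 1.0 and Ccne1 by 0.90, with adjusted p of 0.0693, 0.163 and 0.153. The median was 0.48, against -0.14 over all items. Slides separate these groups as well, so that slide and group cannot be told apart.

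Against PBS lungs, 3 comparisons share the same 3 PBS arrays, and over 50% of all items were called in each. In LPS/NNK against PBS 26 of 46 genes were higher and 0 lower, where 27.9% of all items were called higher and 27.1% lower, with a median of 1.01 over the 46 genes and -0.04 over all items. In LPS against PBS 16 were higher and 6 lower, where 26.1% of all items were higher and 29.9% lower (median 0.29). In NNK against PBS 7 were higher and 8 lower, where 27.8% were higher and 23.7% lower (median -0.13). The shares called in NNK lungs, 15.2% higher and 17.4% lower, were thus below those of all items. Kif11 and Ccne2 passed the filter on dim probes through the PBS arrays alone, where they are high, so their lower calls are counted but support nothing; over the 39 genes above background on all 12 arrays the counts were 16 higher and 3 lower in LPS lungs and 7 higher and 5 lower in NNK lungs.

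PBS 1 stood apart from the other PBS arrays. It was the highest of the 3 PBS arrays for 43 of 46 genes, against 37% of all items, with a median difference of 0.99 from the other PBS arrays, and the median SD of the 46 genes was 0.64 in PBS lungs against 0.25 over all items. Without PBS 1 the counts were 28 higher and 0 lower in LPS/NNK against PBS (all items 25.4% and 23.4%), 19 and 1 in LPS against PBS (22.5% and 25.5%) and 12 and 2 in NNK against PBS (23.6% and 18.1%). Without PBS 1 and PBS 2 together they were 19 and 0 in LPS/NNK against PBS, or 41.3% higher where 17.4% of all items were higher and 12.8% lower. In the same fit they were 13 and 1 in LPS against PBS, or 28.3% higher where 13.0% of all items were higher and 13.0% lower, and 8 and 1 in NNK against PBS, or 17.4% higher where 12.6% were higher and 7.02% lower. With normexp they were 11 and 0 in LPS against PBS (all items 12.1% and 6.80%) and 9 and 1 in NNK against PBS (30.2% and 6.52%). Some higher calls were lost in at least 1 of the fits without PBS 1, PBS 2 or both. In LPS/NNK against PBS these were Cenpe, Cenpf, Top2a, Tpx2, Prc1, Kif2c, Mcm2, Mcm6, Mcm7 and Rrm2. In LPS against PBS they were Aurkb, Ccnb2, Rrm2, E2f1 and Foxm1.

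Genes higher in all 3 treated groups than in PBS lungs were 7: Cdc20, Ube2c, Plk1, Foxm1, Mybl2, Cdt1 and Mcm2. The share of all items called higher in all 3, or with all treated arrays above PBS, was not worked out. The count therefore does not set these genes apart from other items. These 7 were also called in all 3 without PBS 1. Without PBS 1 and PBS 2 together Foxm1 was not called in LPS lungs (log2 change 1.26, adjusted p = 0.0596) nor Mybl2 in NNK lungs (0.89, adjusted p = 0.11), and without PBS 2 alone Plk1, Mybl2 and Mcm2 were no longer called in all 3. Cdc20 changed by 2.70 in LPS/NNK lungs (adjusted p = 2.05e-05), 1.84 in LPS lungs (0.000338) and 1.63 in NNK lungs (0.00103). Foxm1, the mitotic transcription factor, had levels of -1.0, -0.10 and -0.52 in LPS/NNK lungs, -1.49, -0.65 and -0.96 in LPS lungs and -0.45, -1.08 and -0.83 in NNK lungs, against -1.74, -3.04 and -2.29 in PBS lungs. Mybl2 (B-Myb) read -1.31, -1.42 and -1.5 in LPS/NNK lungs, -1.78, -1.18 and -1.77 in LPS lungs and -1.76, -2.10 and -2.23 in NNK lungs, against -2.50, -3.05 and -2.91 in PBS lungs. For both factors all 9 treated arrays lay above all PBS arrays. The treated groups overlapped, except that the Mybl2 arrays of LPS/NNK lungs lay above those of NNK lungs. The changes of Foxm1 were 1.82, 1.33 and 1.57 and those of Mybl2 1.41, 1.24 and 0.79, in LPS/NNK, LPS and NNK lungs in that order. Cdt1 had 2.83, 3.35 and 3.6 in LPS lungs, against 2.17, 0.92 and 0.97 in PBS lungs (log2 change 1.91, SE 0.36, adjusted p = 0.000749), and again the treated arrays did not overlap with PBS. E2f1, the activating E2F, was called only in LPS against PBS among these 3: it had -0.28, -1.12 and -1.37 in LPS/NNK lungs, -0.44, -0.41 and -1.39 in LPS lungs and -0.73, -1.07 and -1.62 in NNK lungs, against -1.49, -1.91 and -1.72 in PBS lungs, with adjusted p of 0.0738, 0.0329 and 0.19. Its probes disagree: the one used changed by 0.78, 0.96 and 0.56 in LPS/NNK, LPS and NNK lungs, and a second, also above background on all 12 arrays, by -0.60, -0.13 and -0.48, so no direction is given for E2f1.

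Genes called lower in both LPS and NNK lungs than in PBS lungs were 5: Bub1, Mad2l1, Kif11, Nusap1 and Pcna. The share of all items called lower in both was not worked out, so this count does not set the genes apart either. Without PBS 1, or without PBS 1 and PBS 2 together, 0 genes were called lower in both. Without PBS 1, Bub1 was still called in LPS lungs (log2 change -1.18, adjusted p = 0.0356) and Nusap1 and Mad2l1 in NNK lungs (-1.3 and -1.19, adjusted p = 0.00985 and 0.0102), while without both arrays Nusap1 in NNK lungs alone was called of these 5 (-1.59, adjusted p = 0.028). Pcna had levels of 2.62, 3.38 and 3.59 in LPS/NNK lungs, 2.83, 2.82 and 3.01 in LPS lungs and 2.62, 2.54 and 2.69 in NNK lungs, against 3.91, 3.37 and 3.41 in PBS lungs. It fell by 0.68 on the log2 scale in LPS lungs (SE 0.27, adjusted p = 0.0463) and by 0.95 in NNK lungs (adjusted p = 0.0109), with no overlap in either; without PBS 1 the adjusted p were 0.179 and 0.0539. Nusap1 changed by -1.06 in LPS lungs and -1.54 in NNK lungs, and Mad2l1 by -0.98 and -1.46, with adjusted p between 0.00172 and 0.0143. Kif11, a bipolar spindle kinesin, had -6.01, -6.02 and -5.80 in LPS lungs and -5.92, -6.95 and -5.90 in NNK lungs, against -4.51, -5.41 and -5.04 in PBS lungs, but no treated array of these groups was well above background, and no fold can be given against that floor. The same holds for Ccne2, called lower in LPS lungs, at -6.59, -6.15 and -6.11 in LPS lungs and -4.89, -5.62 and -4.67 in PBS lungs. Of these 5 genes and Ccne2, none was called lower in LPS/NNK against PBS. Ccnb1, Cdc6 and Tyms were the other genes called lower in NNK lungs, by -1.30, -1.12 and -0.97 (adjusted p = 0.0175, 0.0206 and 0.0332). Without PBS 1 none of these 3 was called (-0.92, -0.70 and -0.61, adjusted p = 0.0874, 0.106 and 0.165). The second Cdc6 probe changed by only -0.145 here. The Ccnb1 probe was above background on 1 of 3 NNK arrays, so the size of its fall is uncertain.

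**Figure D4:**
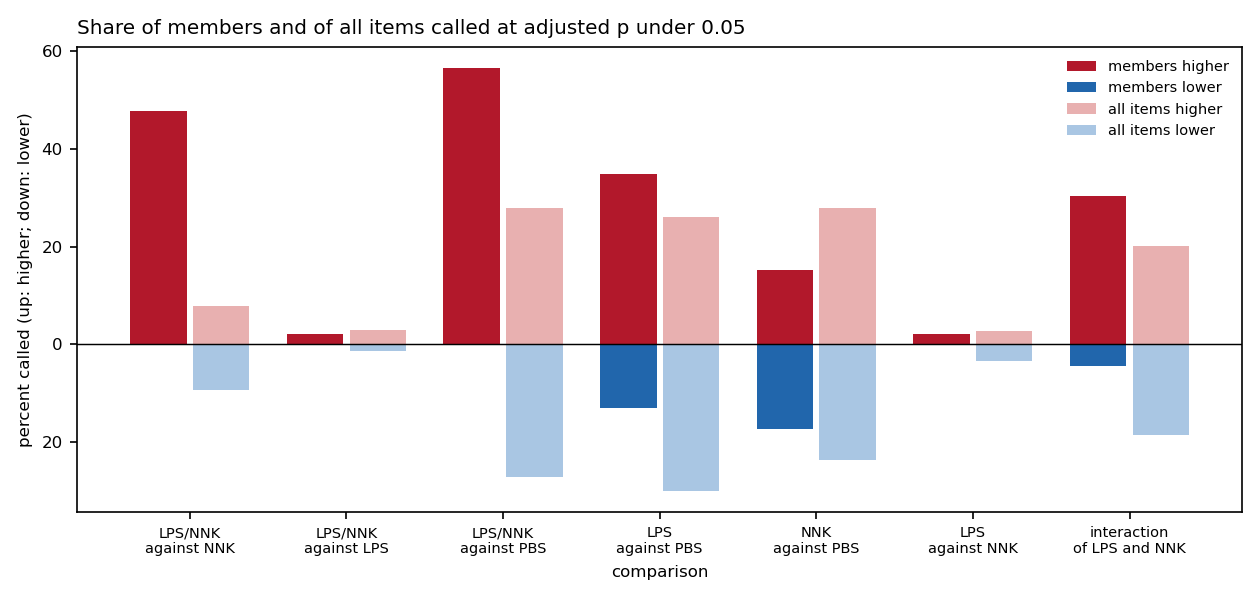
Percent of the 46 genes and of all 21857 items called higher and lower at an adjusted p under 0.05 in each of the comparisons, drawn as bars that start at 0. The gap between genes and all items is wide in LPS/NNK against NNK, where 47.8% and 7.92% were called higher, and narrow or reversed in NNK against PBS.

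The effect of endotoxin differed with NNK for some genes. The interaction, the change of LPS/NNK over NNK minus the change of LPS over PBS, was above 0 and called in 14 of 46 genes and below 0 in 2 (Ube2c and Mcm2), where 20.1% of all items were called above and 18.6% below (median 0.51 over the 46 genes and 0.01 over all items). Over the 39 genes above background on all 12 arrays, 10 were called above 0 and 2 below. Of these, Cenpf, Nusap1 and Cenpe had the largest values, 2.37, 2.36 and 2.24, with adjusted p of 0.0129, 0.00279 and 0.0127; the second Cenpe probe gave 0.65. Bub1 had a fitted value of 2.46 (adjusted p = 0.00479) with its probe above background on 1 of 3 LPS arrays, so that the size is uncertain. For Cenpf the means were -0.81 ± 0.60 in LPS/NNK lungs, -2.60 ± 0.62 in LPS lungs, -2.59 ± 0.61 in NNK lungs and -2.0 ± 0.78 in PBS lungs (SD, n = 3 each). The LPS mean was below the PBS mean here (adjusted p = 0.282), while LPS/NNK was above NNK. For Ube2c, whose interaction was -1.63 (adjusted p = 0.00505), the means were -0.14 ± 0.08, 0.27 ± 0.20 and -0.07 ± 0.35 in LPS/NNK, LPS and NNK lungs and -1.29 ± 0.34 in PBS lungs. Each agent alone raised it over PBS, and the LPS/NNK mean lay below the LPS mean. Mcm2 had 1.07, 0.63 and 0.31 in LPS/NNK lungs, 0.83, 1.07 and 1.64 in LPS lungs and 0.69, 0.68 and 0.80 in NNK lungs, against 0.57, -0.57 and -0.93 in PBS lungs, with an interaction of -1.55 (adjusted p = 0.029). Without PBS 1, 9 interactions were called above and 5 below (all items 15.6% and 14.8%). Without PBS 1 and PBS 2 together the median interaction was 0.47 over the 46 genes and -0.02 over all items. With the slide series as a term 5 were called, 3 above and 2 below, where 4614 of all 21857 items were called. With normexp 0 were called (7 at an unadjusted p under 0.05), where 50 of all items were called.

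Other genes of the pathway were taken from lists made by name. Of 34 other mitosis genes tested, 11 were higher and 1 lower in LPS/NNK against NNK, with a median of 1.01. Racgap1, a cytokinesis protein, changed by 1.45, Kif22, a chromosome-bound kinesin, by 1.77, Cep55, of the abscission site, by 1.58, and Cdca5 (sororin, of sister cohesion) by 2.12, with adjusted p of 0.00605, 0.00903, 0.00912 and 0.0095. The gene called lower was Cit (citron kinase), which fell by 0.79 (adjusted p = 0.0212) and was named after its value was seen. Of 32 other replication genes, 6 were higher and 0 lower, with a median of 0.72, among them Mcm10 (1.58), Gmnn, the geminin that restrains Cdt1 (1.19), Dbf4 (1.05) and Timeless (0.95). Their adjusted p were 0.0214, 0.0148, 0.0125 and 0.00946. Against PBS, 12 of these 32 genes were lower and 3 higher in LPS lungs, and 14 were lower and 2 higher in NNK lungs, with medians of -0.44 and -0.76, where 29.9% and 23.7% of all items were lower. PBS 1 moved with these counts: the mean log2 level of the list was 0.01 on PBS 1 and -0.76 and -0.73 on the other PBS arrays, and it lay between -0.93 and -0.66 on the LPS arrays and between -1.21 and -0.97 on the NNK arrays. Without PBS 1, 5 were lower and 5 higher in LPS lungs and 7 lower and 2 higher in NNK lungs, where 25.5% and 18.1% of all items were lower. Leaving out PBS 1 and PBS 2 together leaves 1 PBS array, so no count is given for this list. In that fit the median change of the list was -0.26 in LPS lungs and -0.52 in NNK lungs. Over all items the medians were -0.05 and 0.05.

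The genes of entry into and exit from the cycle were listed separately. Of 10 G1 cyclins and kinases 0 were higher and 1 was lower in LPS/NNK against NNK: Cdk4, the partner of D cyclins, had 1.33, 0.02 and -0.10 in LPS/NNK lungs, against 1.86, 1.55 and 1.54 in NNK lungs (log2 change -1.23, SE 0.35, adjusted p = 0.0282). At an unadjusted p under 0.05 limma gave 1 higher and 2 lower. Ccnd3, Cdk7 and Ccnh changed by -0.94, 0.87 and 0.54 and Myc by 0.59, none called, and Ccnd1 was not matched to a probe. Against PBS lungs Myc rose by 1.5, 1.31 and 0.91 in LPS/NNK, LPS and NNK lungs; without PBS 1 it was not called in NNK lungs (0.80, adjusted p = 0.12), and without PBS 1 and PBS 2 together in none of them. Of 20 CDK inhibitors, pocket proteins and quiescence genes 5 were higher and 1 lower in LPS/NNK against NNK: Gas1 (1.30), Cdkn1c, the p57 inhibitor (0.84), Rbl2, a pocket protein of DREAM (0.81), Rbl1 (0.80) and Lin37 (0.80) were higher and Cdkn2b, the p15 inhibitor, fell by 0.81. Cdkn1a (p21), a target of p53, differed from NNK by 0.14 (adjusted p = 0.799) but rose against PBS by 1.55 in LPS/NNK lungs, 1.12 in LPS lungs and 1.41 in NNK lungs. Without PBS 1 and PBS 2 together Cdkn1a was called in none of them (1.09, 0.66 and 0.95, adjusted p = 0.0703, 0.255 and 0.127). Cdkn2c differed from NNK by 0.04.

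Markers of blood and tissue cells moved in the same comparison, LPS/NNK against NNK, and their part in the result was not tested. Of 14 T cell markers tested 9 were higher and 0 lower, and their summed level ran between 117 and 208 in LPS/NNK lungs and between 78.4 and 108 in LPS lungs, against 23.5 to 28.2 in NNK lungs and 13.7 to 17.0 in PBS lungs. Of 12 monocyte and macrophage markers 8 were higher (summed level 603 to 1218 in LPS/NNK lungs, against 538 to 773 in NNK lungs), of 7 plasma cell markers 4, of 8 alveolar macrophage markers 3 and of 9 B cell markers 2, with none lower in these lists. Of 10 endothelial markers 2 were lower and of 6 erythroid markers 3. Of 10 neutrophil markers 1 was higher and 1 lower, of 10 lung markers 0 were higher and 2 lower, and of 4 germinal centre markers 0 were called (1 higher at an unadjusted p under 0.05 in limma). Of the thymocyte markers tested, Dntt was not called and Cd1d1, which other cells make too, rose by 2.17. The thymocyte genes Rag1, Rag2 and Ptcra and the germinal centre genes Mybl1 and Rgs13 were not well above background on any array. Where genes had further probes, 11 other probes of 10 genes were above the filter, and in LPS/NNK against NNK 10 of the 11 changed with the same sign as the probe used, though several by less, as given above. In LPS against PBS and in LPS against NNK 8 of the 11 had the same sign.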

How the data were processed

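Lung RNA was measured on 12 1-colour Agilent arrays (design 14868), 3 per group as the labels assign them. Per the file headers, the deposited intensity values came from Agilent Feature Extraction 10.7.3.1 (10.7 in the submitters' processing notes), which subtracted the background within each array. The deposited log2 table of the series, made with Partek per the submitters' processing notes, equalled the values computed here from the scanner signal to within 0.000176. Marks for spots above background, saturation and outliers came from the scanner software, per the file headers, and saturation was found on no array. Spots marked as outliers (39 to 99 on each array) were removed and the rest averaged by probe, giving 41174 probes, and 37 probes with no other spots were dropped.

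The 75th percentile of each array was subtracted from its log2 processed signals. Probes were named through RefSeq accessions (24355 probes, 59.2%, for 17009 genes). Probes well above background on all arrays of at least 1 group were kept (28334), and the brightest stood for its gene. limma 3.58.1 (R 4.3.3) fitted the 4 group means over all 12 arrays, with 8 residual and 5.49 prior degrees of freedom, 7 comparisons and Benjamini-Hochberg adjustment over all items, and the fit was checked on simulated data. The labels do not state that the 3 arrays of a group came from separate mice, so p-values measure only the spread between these samples, which may be technical. The number of arrays limits the precision. Same-numbered samples are not said to share anything, and the correlation of their deviations lay between -0.15 and 0.41, so the numbers were not taken as pairs.

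The members, lists and motifs were chosen with earlier results of these data known. Values on every array were given for up to 4 genes per role (2 in small roles) by the smallest p in LPS/NNK against NNK, for genes called against the majority in a comparison, and for Top2a, Pcna and E2f1. The alternatives were normexp background correction, other normalizations, filters on dim probes, the mean of a gene's probes, slides, slide series (added after the data were seen), a replicate block, and leaving out arrays. Normexp used the deposited median signal and median background with an offset of 50; the mean signal had been planned, but the array tables have no such column. Slides come from the file headers. Slides 5 to 8 each held 2 arrays of different groups, and slides 1 to 4 held 1 array each. The scan of PBS 2 was apart from the others. The series of slides 1 to 4 held PBS 2 and the LPS arrays, so the series term was set by PBS 2 against the other PBS arrays. The promoters are RefSeq sequences of GRCm38.p6.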

Additional observations from a re-analysis of the deposited data

Results flagged for a closer look

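The change with endotoxin differed between lungs given NNK and lungs given none, by the interaction term of limma at an adjusted p under 0.05, in 16 of the 46 genes (34.8%). Over all items 20.1% were called above 0 and 18.6% below, against 30.4% and 4.35% of the genes. The change was larger with NNK for Bub1 (2.46 on the log2 scale), Cenpf (2.37), Nusap1 (2.36), Cenpe (2.24), Birc5 (2.13), Mad2l1 (1.99) and Ccnb1 (1.93). The same direction held for Kif23 (1.87), Tyms (1.67), Kif11 (1.62, a fitted value with 0 LPS and 0 NNK arrays above background, which supports no size), Cdc6 (1.54), Rrm1 (1.5), Prc1 (1.41) and Pcna (1.26). It was smaller with NNK for Ube2c (-1.63) and Mcm2 (-1.55). Of the alternatives tried, Mad2l1, Nusap1 and Ube2c were called in 22 of 23, and Cdc6 and Prc1 in 10 of 23. Birc5, Ccnb1, Kif23, Tyms, Kif11, Cdc6, Rrm1, Prc1, Pcna and Mcm2 depended on the PBS arrays. Each lost its call in at least 1 of the fits without PBS 1, PBS 2 or both. The probes of Bub1, Ccnb1, Kif23 and Kif11 were below background on some arrays of the groups compared, so their sizes are uncertain. A second Cdc6 probe gave an interaction of 0.95. In groups of 3 arrays no single array was tested for lying apart.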

How the results depend on the processing

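The median change of the 46 genes in LPS/NNK against NNK was above 0 under every alternative run, and no gene was called lower; the count of 22 fell to 3 with normexp and ran between 7 and 26 when 1 array was left out. Normexp moved the median of all items to -0.18 in LPS/NNK against NNK, 0.31 in LPS/NNK against LPS, 0.53 in LPS/NNK against PBS, 0.33 in LPS against PBS and 0.55 in NNK against PBS. In LPS/NNK against LPS the count of 1 became 3 with only probes above background on all 12 arrays or with an intensity trend, and 0 with normexp, cyclic loess, no filter, the slide series as a term or without PBS 1 and PBS 2 (8, 16, 16, 0 and 18 at an unadjusted p under 0.05 in limma), and 0 to 13 with 1 array left out. In LPS/NNK against PBS the count of 26 became 17 with the slide series, which for this comparison is the same fit as leaving out PBS 2. It became 16 with a fixed term for slide and 17 to 28 with 1 array left out. In LPS against PBS the count of 22 became 11 with normexp and 14 without PBS 1 and PBS 2, and 16 to 23 with 1 array left out. In NNK against PBS the 15 calls (7 higher, 8 lower) turned to a majority of higher calls with normexp (10 calls), the mean of a gene's probes (14), probes above background on all 12 arrays (12), without PBS 1 and PBS 2 (9), without NNK 3 (10) and without PBS 1 (14), with 9 to 16 calls when 1 array was left out (9 without NNK 2). In LPS against NNK the count of 1 became 3 with cyclic loess, 2 with quantile normalization and 0 with no filter, normexp or the slide series (9, 5 and 19 at an unadjusted p under 0.05), and 0 to 3 with 1 array left out. The 16 interactions became 0 with normexp, 5 with the slide series and 7 without PBS 1 and PBS 2, and 8 (without NNK 3) to 18 with 1 array left out. The replicate block gave 22 calls in LPS/NNK against NNK, 15 in LPS/NNK against LPS, 28 in LPS/NNK against PBS, 21 in LPS against PBS, 15 in NNK against PBS, 17 interactions, and in LPS against NNK 1 call, which was lower where the fit without the block had 1 higher; the numbers do not pair the mice, so the block is given as a count alone. Single values that changed sign did so with normexp: in NNK against PBS Ccnb1 (0.93), Nusap1 (0.064), Cdc6 (0.55), Bub1 (0.70), Mad2l1 (0.15) and Kif11 (1.41), in LPS against PBS Ccne2 (0.72) and Kif11 (0.63), in LPS/NNK against PBS Ccne2 (1.38), and in the interaction Ccnb1 (-0.46), Cdc6 (-0.17) and Kif11 (-0.85); the cause was not tested. Of the other single values, 4895 kept direction and side of the threshold, 371 lost and 106 gained a call. Dim probes limit Ccnb1, Ccne2, Bub1, Kif11, Kif2c, Kif23 and Cdc45, each below background on at least 1 array.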
